A study of Rattus norvegicus with 4 samples.

Results

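Transcripts of the cytosolic ribosomal proteins were compared in rat tail tendon fibroblasts treated with PRP or with PPP. Members were taken by gene name alone: every probe set annotated with a single symbol of the form Rpl or Rps plus digits and at most 1 closing letter, and Rplp0, Rplp1, Rplp2 or Rpsa. The rule found 73 probe sets of 46 genes among 14824 singly named probe sets of 14557 genes. The large subunit had 55 probe sets of 34 genes and the small subunit 18 probe sets of 12 genes. Because 4 of the 73 repeated the values of another member exactly, there were 69 distinct sets of values.

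The cells came from tail tendons of Lewis rats (retired breeders) and were cultured in gels of type I collagen, first in medium with fetal bovine serum and then in medium with the clot releasate of PRP or PPP for 24 hours. PRP and PPP are read here as platelet-rich and platelet-poor plasma; the labels give the abbreviations alone. There were 2 PRP arrays and 2 PPP arrays, no untreated array was analysed here, and the labels do not say whether replicates came from separate animals or cultures, so p-values here reflect how far these arrays scatter, and that scatter may be technical alone. Nothing in the labels gives the donors of the plasma, so any difference between donors is part of every value. Values are log2 signals of the deposited table, between 0.861 and 12.3, and the number of arrays limits their precision. Among 12 measured markers of tendon fibroblasts 11 lay above the median signal of all named probe sets, against 1 of 8 leukocyte, 2 of 4 platelet, 1 of 4 red cell and 1 of 5 endothelial markers. Some of these markers differed between the treatments. The tendon fibroblast list had a median difference, PRP minus PPP, of -0.46, with 4 positive (up to 0.56) and 8 negative. By limma, 9 of the 12 had an unadjusted p below 0.05, against 16.3% of all probe sets. Of the 12, 2 were called lower with PRP (Fmod at -2.43 and Tnmd at -1.36), against 1.02% of all probe sets. The 4 platelet markers had a median of -0.054, with 2 positive and 2 negative. Of these, 1 was called higher (Pf4 at 1.85), against 0.83% of all probe sets. The part of these markers in the values below was not tested. In bulk RNA, fewer cells of a type and less RNA per cell cannot be told apart.

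The ribosome of the cytosol reads mRNA and joins amino acids into protein. Its small subunit holds the mRNA and matches it to transfer RNA, and its large subunit forms the peptide bond. Each ribosomal protein is needed in about equal amounts, and their mRNAs are among the most abundant of a dividing or secreting cell. In mammals these mRNAs typically begin with a C followed by a run of pyrimidines, the terminal oligopyrimidine (TOP) tract, through which the growth-sensing kinase complex mTORC1 and the RNA-binding protein Larp1 control how often they are translated. How often an mRNA is translated is not read by an array of total RNA levels.

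The first bases of the transcripts are shown because they are a feature that the naming rule did not use and that some members share. RefSeq promoter windows (build GRCr8) were available for 38 of the 46 genes. Searched on the transcribed strand, a C at the annotated first base followed by at least 4 bases that are each C or T was present in 13 of the 38 (34.2%), against 881 of all 33469 windows of the same length (2.63%). The same motif read from the first base on the opposite strand was present in 0 of the 38 and in 3.69% of all windows. Of 51 windows of mitochondrial ribosomal protein genes, whose products serve a separate ribosome, 2 (3.92%) had the motif on the transcribed strand. Between 10 bases before and 15 bases from the annotated start, 25 of 38 member windows (65.8%) held it, against 28.9% of all windows. On the opposite strand of that stretch 9 of 38 member windows (23.7%) and 35.0% of all windows held it. A match is a description of the annotated sequence, and annotated starts can lie some bases from the start used in a cell. The windows below run from 15 bases before the annotated first base to 15 bases from it, 5′ to 3′ on the strand of the gene, with the pyrimidine run of a match, from the C at the annotated first base on, in capitals. The windows shown are examples in which matches are over-represented, as only 13 of the 38 matched at the first base. The 2 windows without capitals did not match the motif. That of Rpl13 starts with a pyrimidine run that lacks the C at its first base, and that of Rpl18 starts with a purine.
Rps15 (chr7:10068101-10068130, minus strand): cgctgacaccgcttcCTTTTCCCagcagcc
Rps3a (chr2:173827028-173827057, minus strand): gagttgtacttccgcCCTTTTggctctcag
Rplp0 (chr12:46718376-46718405, minus strand): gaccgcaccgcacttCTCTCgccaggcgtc
Rpl10 (chrX:157205835-157205864, plus strand): caggcgtgggagcgtCTCTTTTCCTCTggc
Rpl35a (chr11:81235007-81235036, minus strand): gcgggtcttgccttcCTCTTTCCgccatct
Rpl39 (chrX:121195882-121195911, minus strand): tcttctaatcgcgttCTTCCggcctgtcct
Rpl13 (chr19:68062499-68062528, plus strand): ctttgcggtgcccgatcctttccgctcggc
Rpl18 (chr1:105325255-105325284, plus strand): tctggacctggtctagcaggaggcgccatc

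No ribosomal protein probe set passed the test between PRP and PPP, in either subunit. Few or no calls would be expected among 73 probe sets at the share called over all probe sets, so this count alone says little. By limma, 0 of 73 members had a Benjamini-Hochberg adjusted p below 0.05 over all 14824 probe sets, where 1.85% of all probe sets did (0.83% higher and 1.02% lower with PRP). At an unadjusted p below 0.05 there were 4 members, against 16.3% of all probe sets; they were the Rpl13 probe set and 3 Rpl18 probe sets that hold the same values. The median log2 difference, PRP minus PPP, was 0.023 over the large subunit (33 positive, 22 negative) and 0.0078 over the small subunit (11 positive, 7 negative). Both medians turned negative without PPP replicate 2 (-0.017 and -0.018) and without PRP replicate 2 (-0.0016 and -0.0030). Over all probe sets tested the median was -0.0027, and 49.3% were positive. Members passed as higher with PRP under 3 alternatives: Rpl13 with arrays centred on their medians, Rpl13 and the 3 Rpl18 probe sets with an intensity trend, and the 3 Rpl18 probe sets with dim probe sets left out, as described with these genes. With all probe sets of the table fitted, 0 members and 0.00545% of probe sets passed; with cyclic loess 0 members and 2.14%, with a replicate block 0 members and 0.83%, and with 1 probe set per gene 0 members and 1.85%. With 1 array left out 0 members passed each time, where 0.378% and 0.486% of all probe sets did without PPP replicates 1 and 2, and 0.546% and 0.452% did without PRP replicates 1 and 2. The PRP and PPP arrays did not overlap in 22 of the 73 members (30.1%), against 46.4% of the 14824.

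**Figure D1:**
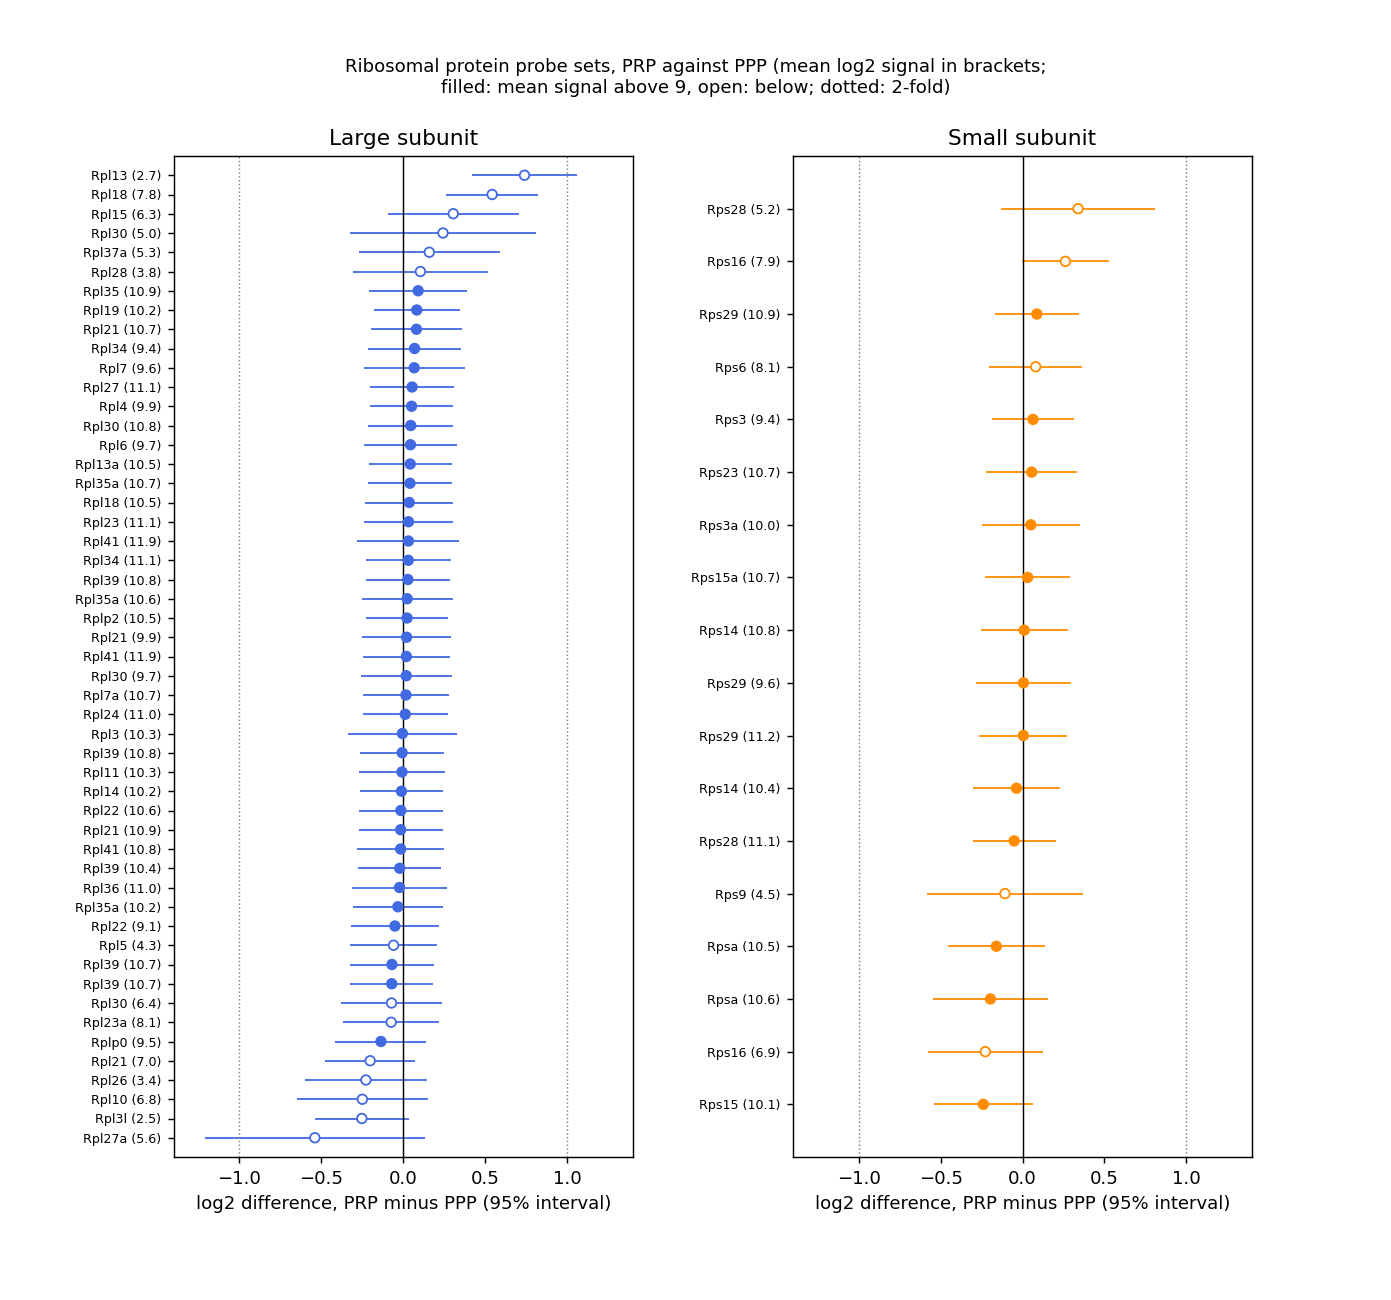
Log2 difference PRP minus PPP of the 69 distinct ribosomal protein probe sets (x axis), with limma's 95% intervals as lines, ordered within the large subunit (left, 51) and the small subunit (right, 18); the mean log2 signal stands in brackets, filled points have a mean signal above 9, and dotted lines mark a 2-fold difference. The filled points lie between -0.24 and 0.09, and the points farthest from 0, Rpl13 at 0.74 and Rpl27a and Rpl18 at -0.54 and 0.54, are open.

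The members divided into a bright and a dim part. A gap in mean signal lay between Rpl23a at 8.14 and a probe set of Rpl22 at 9.08, and the value of 9 inside it, chosen after the values were seen, put 51 probe sets of 33 genes above. Just under the gap lay Rpl23a and Rps6, and just above it Rpl22 and Rps3. Signal depends on the probes as well as on the amount of RNA, so signals are not ranked between genes here. Of the 51, 47 (92.2%) differed by less than 0.1 on the log2 scale, and all 51 by less than 0.25. Their differences ran from -0.24 to 0.09 with a median of 0.019. Each of the 51 intervals at the 95% level lay inside a 1.5-fold change. So did 89.3% of the intervals of other named probe sets above 9, and 71.2% over all probe sets tested. The outermost bounds of the 51 were 0.684-fold (Rpsa) and 1.31-fold (Rpl35). A p that misses the threshold does not show equality. These bounds hold for each probe set singly and rest on the scatter of these arrays, which may be technical alone. Larger changes between separate cultures or animals are therefore not excluded.

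Among the other 449 named probe sets with a mean signal above 9, 51.4% differed by less than 0.1, and 1 was called higher and 4 lower with PRP. Above a signal of 10, 37 of 40 members (92.5%) differed by less than 0.1, against 58 of 92 other probe sets (63.0%). The median size of the difference was 0.031 in those members and 0.064 in those other probe sets. The shares are descriptions and were not tested against each other. Without detection or saturation flags, a flattening of differences among very bright probe sets was not tested.

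**Figure D2:**
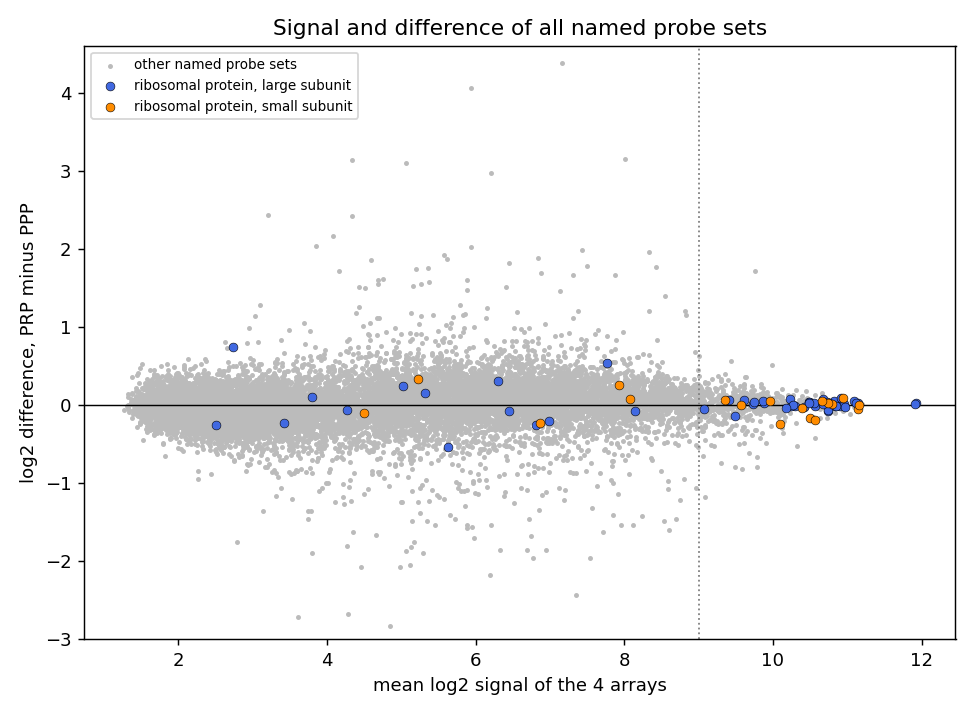
Mean log2 signal of the 4 arrays (x axis) against the log2 difference PRP minus PPP (y axis) for all named probe sets, grey, and the distinct ribosomal protein probe sets, blue for the large and orange for the small subunit; the dotted line marks a signal of 9. Most members lie right of the line and close to 0, and the members left of it spread from -0.54 to 0.74.

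The 4 probe sets with the smallest differences came from 3 genes. Rpl3, a core protein beside the site of peptide bond formation, read 10.28 and 10.26 with PRP and 10.12 and 10.43 with PPP, a difference of -0.0052 (SE 0.14). Rpl39, a small protein in the wall of the peptide tunnel, read 10.82 and 10.85 with PRP and 10.86 and 10.83 with PPP in the probe set nearest 0, a difference of -0.0068. Rps29, a zinc-binding protein of the head of the small subunit, read 11.20 and 11.11 with PRP and 11.20 and 11.10 with PPP, a difference of 0.0049. Another Rps29 probe set read 9.58 and 9.57 with PRP and 9.67 and 9.47 with PPP, a difference of 0.0056. In all 4 of these probe sets the groups overlapped, and the arrays of a treatment lay farther apart than the group means did, most of all the 2 PPP arrays of Rpl3. Choosing probe sets by differences nearest 0 makes both likely in advance.

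The largest negative differences among bright members were in the small subunit. Rps15, a protein of the head near the decoding site, read 9.86 and 10.08 with PRP and 10.25 and 10.17 with PPP, a difference of -0.24 (SE 0.12, adjusted p 0.407 by limma). Rpsa, the laminin receptor homologue at the back of the small subunit, read 10.58 and 10.35 with PRP and 10.79 and 10.53 with PPP in one probe set, a difference of -0.20 (SE 0.14). Its other probe set read 10.39 and 10.44 with PRP and 10.68 and 10.47 with PPP, a difference of -0.16 (SE 0.12). The groups did not overlap for Rps15 or the second Rpsa probe set, as in 46.4% of all probe sets, and overlapped for the first. Adjusted p was 0.568 and 0.581 by limma for the first and second Rpsa probe sets. The largest positive difference among bright small subunit members was that of the remaining Rps29 probe set, at 10.99 and 11.00 with PRP and 10.93 and 10.87 with PPP, a difference of 0.088 (SE 0.10).

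By role, 0 members passed in any set, where 1.85% of all probe sets passed. The sets held from 2 to 19 probe sets, so few or no calls would be expected at that share. The acidic stalk of the large subunit draws elongation factors to the ribosome. Its anchor Rplp0 read 9.44 and 9.40 with PRP and 9.63 and 9.48 with PPP, a difference of -0.14 (SE 0.11), and its partner Rplp2 read 10.50 and 10.49 with PRP and 10.48 and 10.47 with PPP, a difference of 0.023 (SE 0.10). Neither overlapped between the groups, as in 46.4% of all probe sets and 58.6% of other named probe sets above a signal of 9. Their differences had opposite signs. Rpl5 and Rpl11 carry the smallest ribosomal RNA and, when free, bind the p53 regulator Mdm2. Rpl11 had a difference of -0.0078 (10.32 and 10.27 with PRP, 10.35 and 10.26 with PPP). Rpl5 had a difference of -0.059, at a dim 4.27 and 4.22 with PRP and 4.35 and 4.25 with PPP. Both overlapped between the groups.

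Around the exit of the peptide tunnel, 12 probe sets of 6 genes (Rpl19, Rpl22, Rpl23a, Rpl26, Rpl35 and Rpl39) had a median difference of -0.018 and ran from -0.23 (Rpl26, dim) to 0.091 (Rpl35). In the head of the small subunit, 9 probe sets of 5 genes (Rps3, Rps15, Rps16, Rps28 and Rps29) had a median of 0.0056. In its body and platform, 9 probe sets of 7 genes (Rps3a, Rps6, Rps9, Rps14, Rps15a, Rps23 and Rpsa) had a median of 0.010. Rps6, the protein that S6 kinases phosphorylate, read 8.14 and 8.10 with PRP and 7.95 and 8.13 with PPP, a difference of 0.080 (SE 0.11), and the groups overlapped. Genes whose human counterparts are mutated in Diamond-Blackfan anaemia, a failure of red cell production, had 19 probe sets of 11 measured genes with a median of 0.037; 3 of the 19 are the repeated Rpl18 values.

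Array by array, the bright members showed no common shift that set the PRP arrays apart. Taking each of the 51 bright members relative to its own mean over the arrays, the median stood at 0.00039 and 0.017 on the PRP arrays and at 0.022 and -0.025 on the PPP arrays. The 2 PPP arrays thus lay on either side of both PRP arrays. The median size of the gap between the arrays of a treatment was 0.042 for PRP and 0.085 for PPP, against a median size of 0.033 for the difference between the treatment means. Means of 2 arrays vary less than single arrays, so these sizes are not on one footing.

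**Figure D3:**
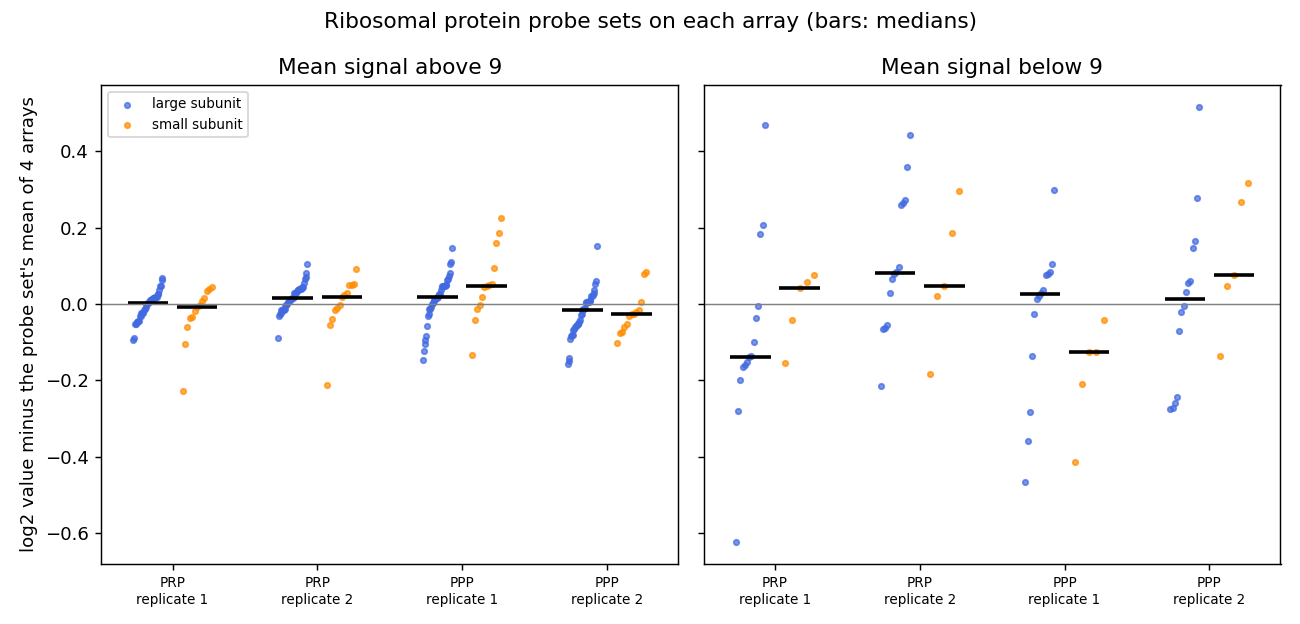
Log2 value minus the probe set's own mean over the 4 arrays (y axis) for each array (x axis) for distinct ribosomal protein probe sets with a mean signal above 9 (left) and below 9 (right), large subunit blue and small subunit orange, with black bars at medians. The bright members stay close to 0 on every array, and the dim members scatter more widely on each.

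The other 22 probe sets, of 17 genes, had mean signals from 2.50 to 8.14, and their differences were wider, from -0.54 to 0.74. Counted once each there were 19 distinct sets of values, 9 positive and 10 negative, with a median of -0.059. The table carries no detection calls, so whether such a signal exceeds background is unknown, and 4 of these members (Rpl3l, Rpl13, Rpl26 and Rpl28) lay under 4.11, the median signal of all named probe sets.

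Rpl13, a large subunit protein, had the largest difference of all members. Its probe set read 3.20 and 3.00 with PRP and 2.27 and 2.46 with PPP, a difference of 0.74 (SE 0.13, 95% interval 0.42 to 1.06, adjusted p 0.0626 by limma). Both PRP arrays were higher than both PPP arrays, at one of the lowest signals among members. It passed as higher with PRP with arrays centred on their medians (adjusted p 0.0426 by limma), where 1.34% of all probe sets passed as higher and 2.52% in either direction. It also passed with an intensity trend (adjusted p 0.0353 by limma), where 3% passed as higher and 5.45% in either direction.

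Rpl18, another large subunit protein, had 4 probe sets, and 3 of them held the same values: 7.95 and 8.13 with PRP and 7.49 and 7.51 with PPP. Their difference was 0.54 (SE 0.11, 95% interval 0.26 to 0.82, adjusted p 0.101 by limma), with both PRP arrays above both PPP arrays. The fourth, bright, probe set of Rpl18 read 10.52 and 10.50 with PRP and 10.54 and 10.41 with PPP, a difference of 0.037 (SE 0.11, 95% interval -0.23 to 0.31), and its groups overlapped. The 3 dimmer ones passed with an intensity trend (adjusted p 0.00882 by limma) and with dim probe sets left out (0.0301), where 4.87% of the probe sets kept passed as higher and 8.77% in either direction, while the bright one passed in no setting tried. The probe sets of this gene therefore gave different answers in those settings, and why was not tested.

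The remaining dim large subunit members with large differences differed in their errors. Rpl27a read 5.01 and 5.72 with PRP and 5.65 and 6.15 with PPP, a difference of -0.54 with the highest SE of all members (0.27). Rpl15, a large subunit protein, read 6.51 and 6.40 with PRP and 5.94 and 6.36 with PPP, a difference of 0.31 (SE 0.16). Rpl10, which completes the large subunit late in its assembly, read 6.53 and 6.84 with PRP and 6.79 and 7.09 with PPP, a difference of -0.25 (SE 0.16). The groups overlapped for Rpl27a and Rpl10 but not for Rpl15, whose lower PRP value stood just above its higher PPP value. Rpl26 read 3.26 and 3.36 with PRP and 3.72 and 3.36 with PPP, a difference of -0.23 (SE 0.15). Rpl3l, a copy of Rpl3 used mainly in heart and skeletal muscle, read 2.47 and 2.29 with PRP and 2.61 and 2.65 with PPP, a difference of -0.25 (SE 0.12). Adjusted p of these 5 lay between 0.358 and 0.525 by limma.

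Some genes had more than 1 distinct probe set. Of 13 such genes, 5 had differences of 1 sign and 8 of both signs; how much of this is scatter between arrays was not tested. In Rps16 the probe sets pointed opposite ways: one read 8.00 and 8.11 with PRP and 7.80 and 7.79 with PPP (difference 0.26, SE 0.11), and the other 6.82 and 6.68 with PRP and 6.82 and 7.13 with PPP (difference -0.23, SE 0.14). The groups did not overlap in either, as in 46.4% of all probe sets. In the second, the nearest PRP and PPP values were almost level, at 6.8215 and 6.8229. In Rps28 the bright probe set read 11.11 and 11.13 with PRP and 11.19 and 11.15 with PPP (difference -0.051), and the dim one 5.27 and 5.52 with PRP and 4.81 and 5.30 with PPP (difference 0.34, SE 0.19).

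Rpl30 gave 0.046 and 0.018 in its 2 bright probe sets and -0.072 and 0.24 in its dimmer ones; the last read 4.82 and 5.46 with PRP and 5.05 and 4.75 with PPP (SE 0.23). Rpl21 gave -0.016, 0.081 and 0.020 in its bright probe sets and -0.20 in its dimmest. Where all probe sets of a gene were bright they lay close together: the 5 distinct ones of Rpl39 spanned 0.098, the 3 of Rps29 0.083, the 3 of Rpl35a 0.074 and the 3 of Rpl41 0.047 on the log2 scale. Probe sets of one gene may share RNA targets with its copies, and near-identical copies of ribosomal protein genes are common, so these differences are uncertain to that extent.

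**Figure D4:**
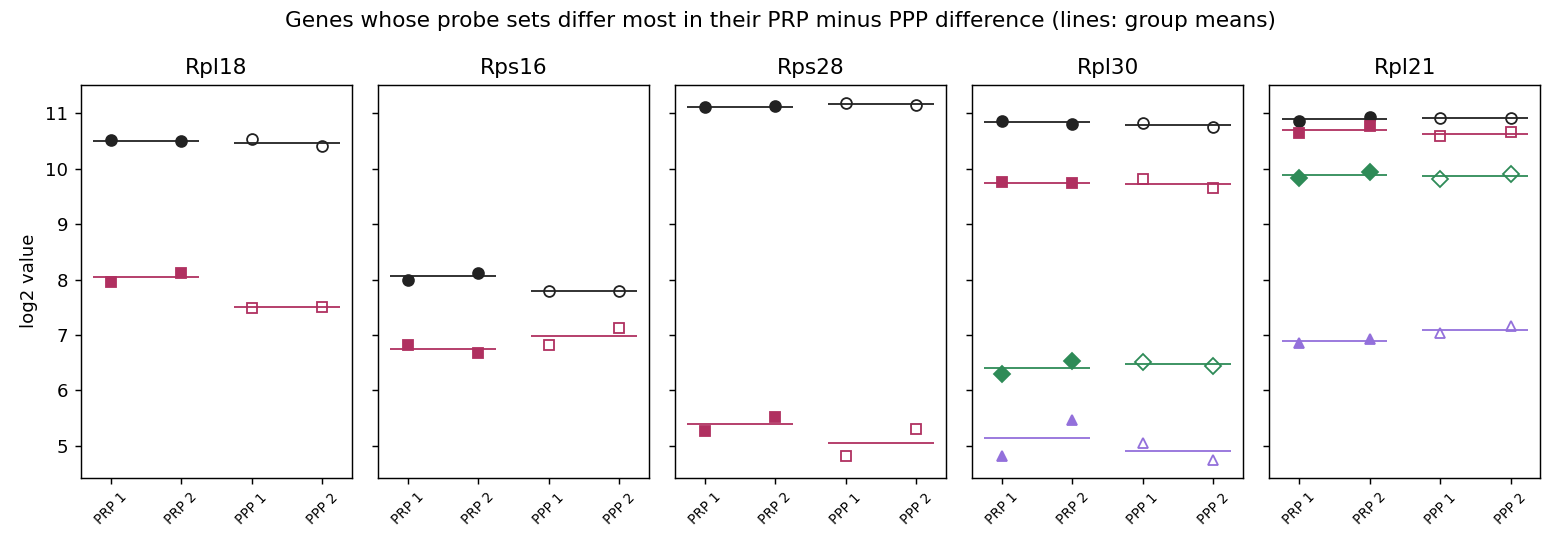
Log2 values (y axis) on the PRP arrays (filled) and PPP arrays (open) for the 5 genes whose distinct probe sets differ most in their PRP minus PPP difference; each symbol shape is 1 probe set and lines are group means. The topmost probe sets of Rpl18, Rps28, Rpl30 and Rpl21 are nearly level, with differences of 0.037, -0.051, 0.046 and -0.016, while those of Rps16 lie at 0.26 and -0.23.

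Many ribosomal protein genes are absent from the 46, and the reason was not checked gene by gene. Probe sets that carry several symbols, a ribosomal protein among them, were outside the rule, and no gene is named from these. There were 45 such probe sets. Their differences had a median of 0.022 and ran from -0.12 to 0.29, and 40 of them lay under 0.1 in size. Of the 41 with a mean signal above 9, 39 differed by less than 0.1, with a range of -0.032 to 0.14. Probe sets named for numbered copies or pseudogenes of ribosomal proteins were also outside the rule. These 135, with a median signal of 4.02, had a median difference of -0.034 (57 positive, 78 negative). By limma 0 of them were called, against 1.85% of all probe sets. At an unadjusted p below 0.05 there were 10 (7.4%), against 16.3% of all probe sets. Rack1, a signalling scaffold on the head of the small subunit, read 10.68 and 10.74 with PRP and 10.69 and 10.72 with PPP, a difference of 0.0042 (SE 0.10). Rpl7l1 and Rps4y2, relatives of ribosomal protein genes, had differences of 0.16 and 0.11 with adjusted p of 0.585 and 0.711 by limma.

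Genes that act with the ribosomal proteins were counted from written lists. By limma 0 were called in each, where 1.85% of all probe sets were called, and lists this short would hold few calls at that share. Of the non-ribosomal mRNAs that also begin with a TOP tract, 10 probe sets of 9 genes had a median difference of 0.0050, 5 positive and 5 negative, with 0 at an unadjusted p below 0.05. Eef1a1, the elongation factor that delivers transfer RNA, read 11.21 and 11.20 with PRP and 11.21 and 11.16 with PPP, a difference of 0.020. The smallest p values of the list were those of Hnrnpa1, an RNA-binding protein (-0.38 in a dim probe set, SE 0.21, and 0.13 in a bright one), and Eif3h, a subunit of an initiation factor (0.22, SE 0.14).

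In the mTORC1 pathway and among regulators of TOP mRNAs, 17 probe sets of 16 genes had a median of -0.0059, with 8 positive and 9 negative, and 3 (17.6%) had an unadjusted p below 0.05, against 16.3% of all probe sets. The median turned positive without PRP replicate 1 (0.012) and with arrays centred on their medians (0.031). Sesn2, an inhibitor of mTORC1 that senses leucine, read 3.45 and 3.78 with PRP and 4.35 and 4.16 with PPP, a difference of -0.64 (SE 0.15, adjusted p 0.129 by limma). Rps6kb2, an S6 kinase, read 5.92 and 5.87 with PRP and 6.34 and 6.27 with PPP, a difference of -0.41 (SE 0.11, adjusted p 0.145). Eif4ebp1, which blocks the cap-binding factor until mTORC1 phosphorylates it, had a difference of -0.35 (SE 0.11, adjusted p 0.207). The groups did not overlap in these 3, as in 46.4% of all probe sets. Eif4ebp1 passed with an intensity trend and Rps6kb2 with dim probe sets left out, where 5.45% and 8.77% of the probe sets fitted passed, and Mtor itself had a difference of 0.090 (SE 0.10).

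Factors of ribosome assembly and mitochondrial ribosomal proteins had mostly positive differences, though 0 passed, where 1.85% of all probe sets did. Of 22 probe sets of 21 assembly genes, 20 were positive and 2 negative, where 49.3% of all probe sets were positive. That share includes dim probe sets, while the assembly probe sets had mean signals from 5.61 to 9.64. Over all probe sets above the median signal of 4.11 the median difference was 0.045, against -0.0027 over all tested. The median of the assembly probe sets was 0.22, and 5 (22.7%) had an unadjusted p below 0.05, against 16.3% of all probe sets. The median of the tendon fibroblast markers stood at -0.46 beside these, and the part of those markers was not tested. Rrs1, needed to form the large subunit, read 7.09 and 7.20 with PRP and 6.64 and 6.70 with PPP, a difference of 0.48 (SE 0.11, adjusted p 0.116 by limma). It passed with an intensity trend and with dim probe sets left out, where 5.45% and 8.77% of the probe sets fitted passed. Efl1, a GTPase that frees the new large subunit for use, had a difference of 0.39 (SE 0.14, adjusted p 0.252).

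Of 63 probe sets of 62 mitochondrial ribosomal protein genes, 51 were positive and 12 negative, with a median of 0.11 (0.052 under cyclic loess). The median over all probe sets above a mean signal of 4.11 was 0.045. At an unadjusted p below 0.05 there were 7 (11.1%), against 16.3% of all probe sets. The smallest p values were those of Mrpl44 at 0.37 (SE 0.11) and Mrpl47 at 0.38 (SE 0.11), with adjusted p of 0.181 and 0.203 by limma. Mrps33 passed with an intensity trend, where 5.45% of all probe sets did. The bright cytosolic members had a median of 0.019 beside these. Their mean signals ran from 9.08 to 11.9, against 4.70 to 9.32 for the mitochondrial ones, and the difference between the lists was not tested.

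Genes that respond to stalled ribosomes had 10 measured members, 8 positive and 2 negative, a median of 0.10 and 0 at an unadjusted p below 0.05. That median was 0.050 under cyclic loess and 0.035 without PPP replicate 2. The nearest were Ltn1, a ubiquitin ligase of stalled peptides (0.25, adjusted p 0.327 by limma), and G3bp1, a stress granule protein (0.23, adjusted p 0.411). Of 4 measured genes of the p53 response, which free ribosomal proteins can set off, 1 was positive and 3 negative, with a median of -0.050 that was -0.14 without PPP replicate 1 and 0.020 without PPP replicate 2. Phlda3, a p53 target, read 7.12 and 7.06 with PRP and 7.51 and 7.31 with PPP, a difference of -0.32 (SE 0.12, adjusted p 0.272 by limma), and Bax, which permeabilises mitochondria, had a difference of 0.084 (SE 0.14). Phlda3 did not overlap between the groups, as in 46.4% of all probe sets, whereas Bax did.

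**Figure D5:**
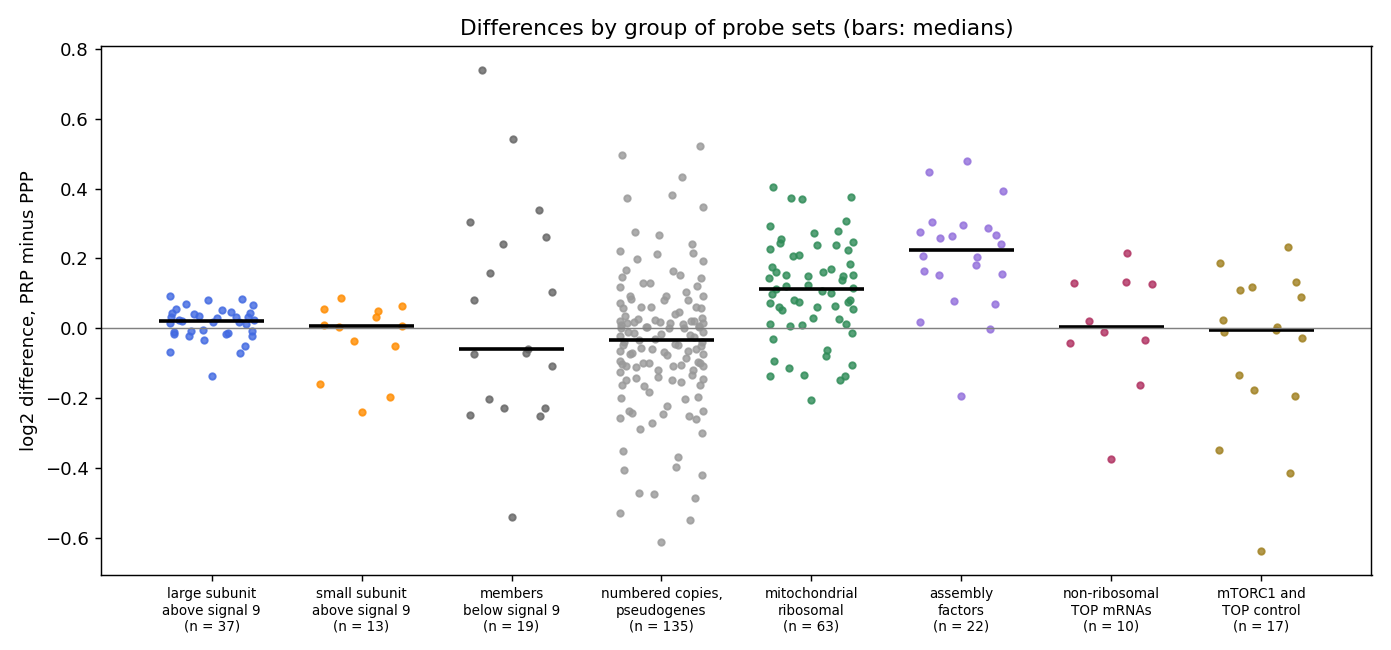
Log2 difference PRP minus PPP (y axis) of single probe sets, as points, by group (x axis, with the number of probe sets), with black bars at medians. The 37 and 13 distinct bright members of the large and small subunit sit near 0, while medians stand at 0.11 for mitochondrial ribosomal proteins and 0.22 for assembly factors.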

How the data were processed

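The submitters' processing notes name RMA, limma and oligo and say nothing of how each was applied. The deposited log2 values have the form RMA gives, with near-equal distributions, so a change in total RNA per cell would not show. The genome build is not given in the sources used here. Of 36685 probe sets, 14824 had 1 gene symbol in the platform annotation, 829 several and 21032 none; of the 73 members, 68 had an Entrez identifier in the GRCr8 gene table.

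PRP and PPP (2 arrays each) were compared with R 4.3.3 and limma 3.58.1 (lmFit, then eBayes; two-sided, no intensity trend, 2 residual and 3.87 prior degrees of freedom) over the 14824 probe sets, dim ones included; a call needed an adjusted p (Benjamini-Hochberg) under 0.05. SE is limma's moderated standard error. The fit was tested on simulated data. Members with the 4 largest differences in each direction per subunit, and the 4 nearest 0, have every array's value printed; of each list the 2 genes with the smallest p were named, and any other gene was picked after its values were seen. Members and lists were chosen with earlier results of these data known. Alternatives changed normalization, variance model, filter, replicate block, probe sets and arrays.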

Additional observations from a re-analysis of the deposited data

How the results depend on the processing

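Of 69 distinct members, limma called 0 in the reported fit, with cyclic loess, with a replicate block, with all probe sets fitted, with 1 probe set per gene and with any 1 array left out. Counted over the 73 probe sets, the members called higher with PRP were 1 with arrays centred on their medians (Rpl13, log2 difference 0.78), 4 with an intensity trend (Rpl13 at 0.74 and the 3 repeats of Rpl18 at 0.54) and 3 with dim probe sets left out (Rpl18 at 0.54). The replicate block used replicate numbers, whose deviations correlated at 0.0056 between the groups; it called 123 of all probe sets in place of 274, and 0 members.

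Centring the arrays on their medians moved the median of all probe sets by under 0.1, to 0.034, and that of the large subunit to 0.060 and of the small subunit to 0.044; cyclic loess moved the small subunit to 0.031. With 1 array left out the large subunit median ran from -0.017 to 0.029 and the small from -0.018 to 0.020, and both turned negative without PPP replicate 2 and without PRP replicate 2. That of members above a signal of 9 ran from -0.023 to 0.037. Counting repeats once, or using only members above a signal of 9 (both chosen after seeing the data), gave 0.019 and 0.022 for the large subunit and 0.0078 and 0.0056 for the small.

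In the other lists, arrays centred on their medians gave medians of 0.042 for non-ribosomal TOP mRNAs, 0.031 for mTORC1 and TOP regulators, 0.15 for mitochondrial ribosomal proteins and 0.041 for Rack1. Cyclic loess gave 0.040, -0.071 and 0.052 for the first 3 lists, 0.16 for assembly and 0.050 for stalled ribosomes. Dim probe sets left out, and 1 probe set per gene, each gave 0.020 for TOP mRNAs. An intensity trend called Eif4ebp1 (1 lower), Rrs1 (1 higher) and Mrps33 (1 higher), and dim probe sets left out called Rps6kb2 (1 lower) and Rrs1 (1 higher); 5.45% and 8.77% of the probe sets fitted were called in these settings. With 1 array left out, medians ran from 0.0025 to 0.030 for TOP mRNAs, -0.040 to 0.012 for mTORC1, 0.16 to 0.25 for assembly, 0.096 to 0.14 for mitochondrial ribosomal proteins, 0.035 to 0.13 for stalled ribosomes, 0.033 to 0.19 for the copies Rpl3l, Rpl7l1 and Rps4y2, -0.14 to 0.020 for the p53 response and -0.024 to 0.032 for Rack1, with 0 calls. The p53 median turned positive without PPP replicate 2, the mTORC1 median without PRP replicate 1, and Rack1 turned negative without PPP replicate 1 and without PRP replicate 2. The causes were not tested. Arrays left out gave fits with 1 residual degree of freedom.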
